A study of Macaca fascicularis with 2 samples.

Results

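The genes described here are the matrix metalloproteinases (MMPs), the ADAMTS and ADAMTS-like proteins and the tissue inhibitors of metalloproteinases (TIMPs) of the fetal ovary of Macaca fascicularis. Every row of the count table named MMP or TIMP followed by a number, or with a name that begins with ADAMTS, was taken, whatever its values. This gave 46 of the 18446 genes, made up of 18 MMPs, 19 ADAMTS proteases, 5 ADAMTS-like genes and 4 TIMPs. The study dissociated whole ovaries with enzymes and counted unique molecular identifiers (UMIs, 1 per captured RNA molecule) in single cells, with 1 female fetus at embryonic day 84 (E84) and 1 at E116. Both ovaries of a fetus were in 1 library. Nothing in the table ties a cell to a library, so the cells of both fetuses form 1 pooled sample and no value is given by stage.

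MMPs are zinc-dependent proteases that are secreted as inactive precursors or held at the cell surface, and between them they cut most collagens and many other proteins of the extracellular matrix. ADAMTS proteases are secreted enzymes with thrombospondin repeats. Some of them cut proteoglycans such as versican and aggrecan, and others remove the end piece of procollagen before fibrils form. ADAMTS-like proteins share the repeats but lack the protease domain, and several bind the microfibrils that fibrillin makes. TIMPs bind and block the active enzymes, TIMP3 while held in the matrix and with ADAMTS proteases among its targets. In the adult ovary these enzymes are best known for the remodelling of the follicle wall around ovulation.

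The table holds 20967 cells, of which 16292 had from 200 to 3000 detected genes and were retained, with 499 to 41621 UMIs per cell and a median of 2670. Barcodes end in 1 (8716 retained cells) or 2 (7576), and these endings were used only as unlabelled batches. The endings have 27 barcodes in common. The 4675 cells over 3000 genes, left out because the study's methods set that limit, held from 46.8% to 70.7% of the UMIs of each gene described with values. Clustering without the 46 genes gave 18 clusters, of which 14 were named from cell type markers and 4 stayed unnamed. The named cells were 4001 stroma-like, 4037 granulosa-like, 757 ovarian surface epithelium-like, 120 pericyte-like, 342 endothelial-like, 229 macrophage-like, 3236 germ cell-like and 735 erythroid-like cells. Each marker list of a named class had its highest summed level in that class, which naming from the same markers favours and which is no separate check. The macrophage-like cluster was also high in all 8 lymphocyte markers. Pericyte-like cells had the stroma list at 3514 counts per 1000000 UMIs (CPM), beside 6541 CPM for their own list. Only 9 pericyte-like and 39 macrophage-like cells had barcodes ending in 1.

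Levels are given in CPM, from UMIs summed over the cells of a class, and the ranges in parentheses are exact 95% Poisson intervals (binomial where a share is given). These intervals stand for counting error alone, since cells are not replicates. With 1 pooled sample no test between classes was made. In its place a gene was called higher in a class where its level there, with 10 CPM added, was at least 2-fold that in all other named cells together. Erythroid-like cells, which make almost no matrix, show the level that RNA free in the suspension can give. In them TIMP1 reached 45.8 CPM, ADAMTS1 8.41, MMP2 5.43 and TIMP3 4.61 CPM, and every other member was at 2.71 CPM or less. Markers of red cells took 474600 CPM of their total, which lowers the CPM of all else in them.

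Of the 46 genes, 24 reached 20 CPM with 10 UMIs in some class and are described with their values, and 22 did not. The described genes were highest in stroma-like cells in 8 cases, in pericyte-like and in surface epithelium-like cells in 5 each, in endothelial-like cells in 4 and in macrophage-like cells in 2. None was highest in granulosa-like, germ cell-like or erythroid-like cells when both endings were pooled. Among the 6 classes with at least 50 cells in each ending, 16 of the 24 genes had the same highest class in both endings. The 8 that did not were ADAMTS1, ADAMTS4, ADAMTS5, ADAMTS9, ADAMTS10, ADAMTSL3, MMP11 and MMP16. Pericyte-like and macrophage-like cells are not among these 6 classes, so a highest level there could not be checked in both endings. ADAMTS8, MMP9 and MMP19 count among the 16 with another class than their pooled one. Their shared classes were granulosa-like, germ cell-like and stroma-like cells, in place of pericyte-like cells for ADAMTS8 and macrophage-like cells for the others. TIMP1 alone gave 52.9% of the 80884 UMIs of all members in retained cells.

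**Figure D1:**
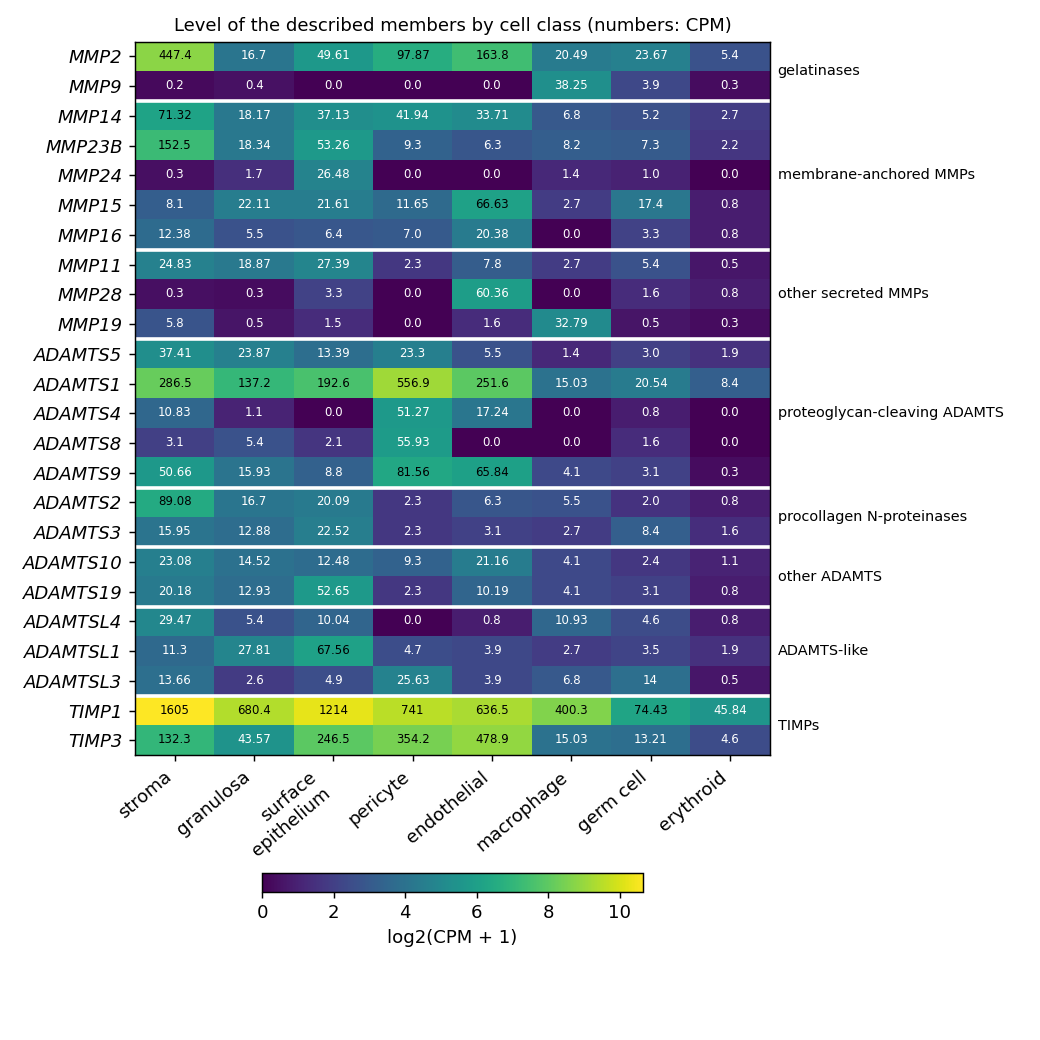
Level of the 24 described genes (rows, grouped by role) in each cell class (columns), coloured by log2(CPM + 1) with the CPM written in each cell. Stroma-like cells hold the highest MMP2 (447 CPM), MMP23B (152.5) and ADAMTS2 (89.1 CPM), pericyte-like cells the highest ADAMTS1 (557 CPM), and MMP9, MMP24 and MMP28 each stand above 20 CPM in 1 class.

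In stroma-like cells 8 members were at least 2-fold higher than in all other named cells (2.79% of all genes tested were). They were MMP2, MMP14 and MMP23B among the MMPs, ADAMTS1, ADAMTS2 and ADAMTS9, ADAMTSL4, and the inhibitor TIMP1. The fold with 10 CPM added was 12.4 for MMP2 and 6.08 for MMP23B. It was 4.68 for ADAMTS2 and from 2.48 to 3.12 for the other 5. The median fold of the 46 genes in this class was 1.16, beside 0.989 for all genes. In each barcode ending alone, 7 of the 8 passed the same size, and ADAMTS1 did so in ending 1 (4.04-fold) but not in ending 2 (1.62-fold).

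MMP2, the gelatinase that cuts denatured collagen and type IV collagen, was at 447 CPM in stroma-like cells (interval 437–458). Next came endothelial-like cells with 164 CPM (142–188), pericyte-like cells with 97.9 CPM (70.5–132) and surface epithelium-like cells with 49.6 CPM (42.3–57.8). These 4 levels had intervals that did not overlap. Germ cell-like cells were at 23.7 CPM (20.4–27.4) and granulosa-like cells at 16.7 CPM (14.8–18.8). Of stroma-like cells, 69.1% held a MMP2 UMI. Cells were also thinned to 1000 UMIs each, which left out 246 stroma-like, 101 granulosa-like and 92 erythroid-like cells. The thinned share was 33.2% in stroma-like, 1.17% in granulosa-like and 0.467% in erythroid-like cells.

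MMP14, the membrane-bound enzyme that activates the MMP2 precursor at the cell surface, had a flatter profile. It stood at 71.3 CPM (67.1–75.7) in stroma-like cells, at 41.9 (24.9–66.3) in pericyte-like, 37.1 (30.8–44.3) in surface epithelium-like and 33.7 CPM (24.4–45.4) in endothelial-like cells. The last 3 overlapped in their intervals. TIMP2, the inhibitor that takes part in that activation, reached only 12.5 CPM at most, in endothelial-like cells, and 6.66 CPM in stroma-like cells.

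MMP23B, which is tethered to the membrane until it is cleaved free, was at 152.5 CPM (146–159) in stroma-like and 53.3 CPM (45.7–61.8) in surface epithelium-like cells. In granulosa-like cells it was at 6.33 CPM in ending 1 and 30.0 CPM in ending 2. ADAMTS2, which removes the N-terminal propeptide of fibrillar procollagen, was at 89.1 CPM (84.4–94.0) in stroma-like cells and at 20.1 CPM or less elsewhere. Its relative ADAMTS3 was spread more evenly, with 22.5 CPM (17.7–28.3) in surface epithelium-like, 16.0 in stroma-like and 12.9 CPM in granulosa-like cells. ADAMTS14, the remaining procollagen N-proteinase, stayed at 2.22 CPM or less.

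Genes for procollagens and their other processing steps were mostly higher in the same class. In stroma-like cells 9 of the 12 were called, where 2.79% of all genes were. Among the 9 were COL1A2, COL1A1, COL3A1 and COL5A2, and the median fold of the list was 3.99. In granulosa-like cells 0 of the 12 were called, where 2.6% of all genes were. In the plasminogen system, which activates several MMP precursors, SERPINE2 and ANXA2 were called higher in stroma-like cells. ANXA2 was also called higher in surface epithelium-like and macrophage-like cells. The protease PLAT was called higher in granulosa-like cells (142 CPM, beside 52.4 CPM in stroma-like cells). Of 14 substrates and partners of ADAMTS proteins, FBLN1, FBN2, PAPLN and FN1 were higher in stroma-like cells. Versican (VCAN), a main substrate of several ADAMTS proteases, was at 341 CPM in stroma-like and 360.4 CPM in granulosa-like cells.

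TIMP1, a broad inhibitor of soluble MMPs, was at 1605 CPM (1585–1625) in stroma-like, 1214 CPM (1176–1252) in surface epithelium-like and 741 CPM (662–827) in pericyte-like cells. Granulosa-like (680.4 CPM) and endothelial-like cells (636.5 CPM, 593.5–682) followed, and pericyte-like cells overlapped with both in their intervals. This order pools the endings, while nearly all pericyte-like cells had barcodes ending in 2. In ending 2 alone the fold against all other named cells was lower in pericyte-like (0.594) than in granulosa-like cells (0.767). In endothelial-like cells it was 0.540. With both endings pooled, TIMP1 was at 400.3 CPM in macrophage-like and 74.4 CPM in germ cell-like cells. Among germ cell-like cells (median 1580 UMIs) 15.1% held a TIMP1 UMI, beside 16.9% of erythroid-like cells (median 4063 UMIs). Thinned to 1000 UMIs per cell, which left out 884 germ cell-like and 92 erythroid-like cells, the shares were 7.74% and 5.60%. The part of free RNA in the germ cell value was not tested.

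The level of TIMP1 also differed between the batches. In granulosa-like cells it was 301 CPM in ending 1 and 1048 CPM in ending 2, and in surface epithelium-like cells 787 and 1589 CPM. In stroma-like cells it was 1235 and 1837 CPM, and in erythroid-like cells 28.1 and 102.5 CPM. TIMP1 was thus higher in ending 2 in all 6 classes with at least 50 cells in each ending. The endings are not tied to a stage. With 1 fetus and 1 library per stage, stage, fetus and library could not be told apart in any case.

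**Figure D2:**
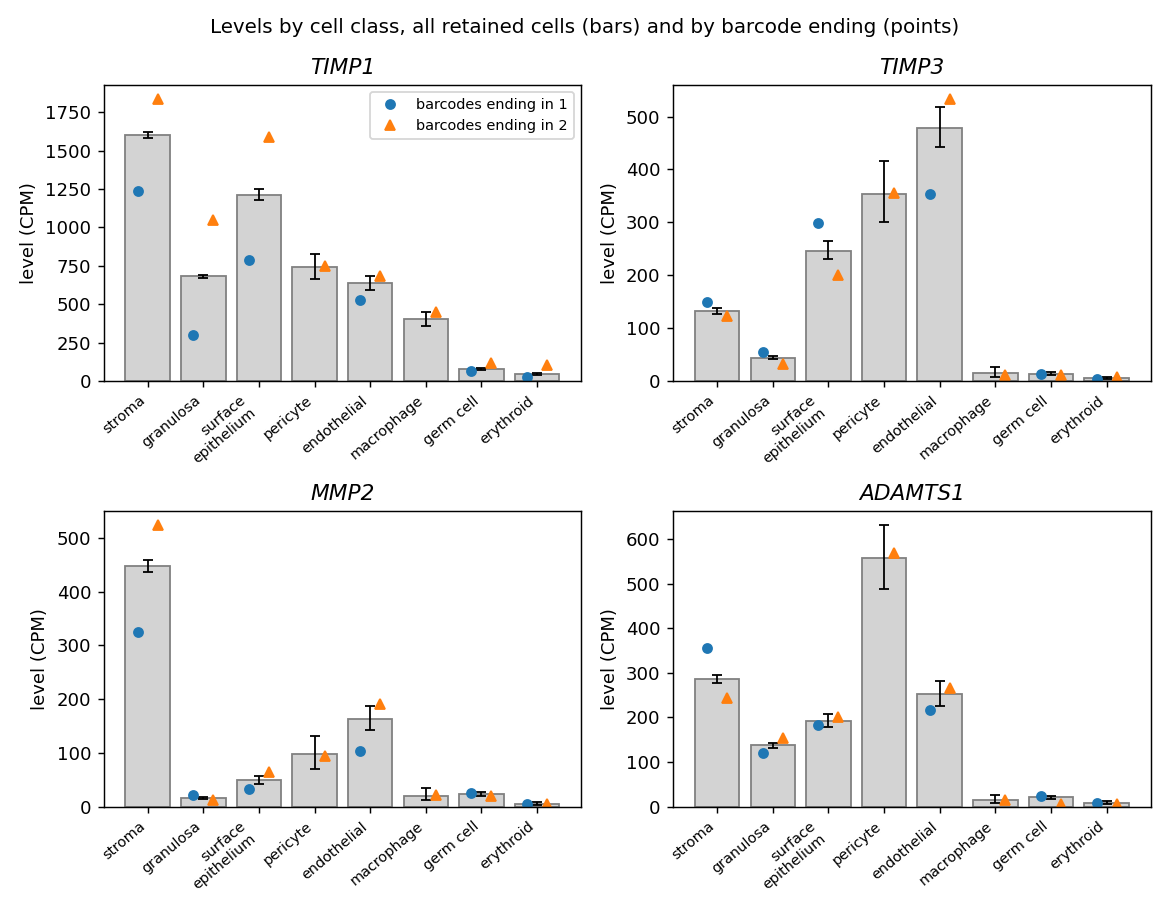
Levels in CPM of TIMP1, TIMP3, MMP2 and ADAMTS1 by cell class: grey bars give all retained cells with exact 95% Poisson intervals, circles the cells with barcodes ending in 1 and triangles those ending in 2 (left out under 50 cells). TIMP1 and MMP2 are highest in stroma-like cells (1605 and 447 CPM), TIMP3 in endothelial-like (479 CPM) and ADAMTS1 in pericyte-like cells (557 CPM).

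The vessels differed from the stroma in the share of TIMP3 beside TIMP1. TIMP1 still had the higher level in both vessel classes (636.5 CPM in endothelial-like and 741 CPM in pericyte-like cells). TIMP3 was highest in endothelial-like cells at 479 CPM (442–518.5), followed by pericyte-like cells at 354 CPM (300.1–415), surface epithelium-like cells at 246.5 CPM (230–264) and stroma-like cells at 132 CPM (126.5–138). It made up 42.9% of the TIMP1 and TIMP3 UMIs in endothelial-like cells (40.4–45.6) and 32.3% in pericyte-like cells (28.1–36.8). The share was 16.9% in surface epithelium-like, 7.62% in stroma-like and 6.02% in granulosa-like cells (5.60–6.45). Within ending 1 and ending 2 it was 40.3% and 43.8% in endothelial-like cells. It was 27.6% and 11.2% in surface epithelium-like, 10.75% and 6.23% in stroma-like and 15.4% and 3.01% in granulosa-like cells. Endothelial-like cells thus had the highest share of these 4 classes in both endings, while the order of stroma-like and granulosa-like cells turned. TIMP4 had no more than 4.66 CPM in any class.

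In endothelial-like cells 5 members were called higher, where 4.35% of all genes were. Besides TIMP3 (5.45-fold with 10 CPM added) they were MMP28, MMP15, MMP25 and ADAMTS9. ADAMTS9 passed the size in ending 1 (4.41-fold) but not in ending 2 (1.46-fold), and the other 4 did in both. MMP28, a secreted enzyme also called epilysin, was at 60.4 CPM (47.6–75.4) there and at 3.35 CPM or less in every other class. It was higher in ending 1 (129 CPM) than in ending 2 (30.4 CPM), and both lay above the other classes. MMP15, a membrane-type MMP, was at 66.6 CPM (53.2–82.4) beside 22.1 CPM in granulosa-like cells. MMP25, a lipid-anchored MMP known from leukocytes, was at 16.5 CPM (10.2–25.2) on 21 UMIs, and at 9.56 CPM on 7 UMIs in macrophage-like cells. MMP16, another membrane-type MMP, had its highest level here as well, at 20.4 CPM (13.3–29.9), beside 12.4 CPM in stroma-like cells. In ending 2 its level was 10.1 CPM in endothelial-like and 10.8 CPM in stroma-like cells. In the same cells ADAM15, ADAM19 and ADAM10, membrane proteases of a neighbouring family, were called higher, 3 of the 11 ADAM genes, and so were PLAU and VWF.

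In pericyte-like cells 5 members were called higher, where 2.99% of all genes were. Besides TIMP3 they were 4 of the proteoglycan-cleaving ADAMTS proteases, namely ADAMTS1, ADAMTS4, ADAMTS8 and ADAMTS9. Of these 4, only ADAMTS1 kept a fold of 2 in every alternative processing that gave a value. The lowest log2 fold was 0.05 for ADAMTS4, 0.55 for ADAMTS8 and 0.49 for ADAMTS9. ADAMTS8 was at 55.9 CPM (35.8–83.2) on 24 UMIs, and no other class passed 5.41 CPM. ADAMTS4 was at 51.3 CPM (32.1–77.6) on 22 UMIs, with endothelial-like cells next at 17.2 CPM (10.8–26.1). ADAMTS1 was at 557 CPM (489–632) beside 286.5 CPM (278–295) in stroma-like and 252 CPM (225–281) in endothelial-like cells. For ADAMTS9 the level of 81.6 CPM (56.8–113) overlapped with the 65.8 CPM (52.5–81.5) of endothelial-like cells. All 19 ADAMTS proteases together made up 38.1% of all member UMIs in pericyte-like cells, the highest share of any class. The share was 18.5% in stroma-like and 20.7% in endothelial-like cells. ADAMTS1 alone gave 239 of the 348 ADAMTS UMIs in pericyte-like cells. These 120 cells gave 913 member UMIs in all, and nearly all had barcodes ending in 2. The protease scavenger A2M was at 387 CPM in them, and it was also called higher in endothelial-like (66.6 CPM), macrophage-like and stroma-like cells.

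ADAMTS1 is also a gene that cells can induce quickly, as they do the immediate early genes. The 8 immediate early genes listed summed to 13450 CPM in stroma-like, 9696 in pericyte-like, 6245 in endothelial-like, 6746 in granulosa-like and 635 CPM in germ cell-like cells. Pericyte-like cells were highest in ADAMTS1 and came next after stroma-like cells in the summed level of these genes. The part of enzymatic dissociation in the level of ADAMTS1 was not tested.

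In surface epithelium-like cells 4 members were called higher, where 1.67% of all genes were, and the same 4 were called in each barcode ending alone. MMP24, a membrane-type MMP best known from the nervous system, was at 26.5 CPM (21.2–32.7), and no other class passed 1.71 CPM. ADAMTSL1 was at 67.6 CPM (59.0–77.1) with granulosa-like cells next at 27.8 CPM (25.4–30.4). ADAMTS19, a protease whose substrates are little known, was at 52.7 CPM (45.1–61.1) with stroma-like cells next at 20.2 CPM (17.96–22.6). Within the class, ADAMTSL1 was at 67.7 CPM in ending 1 and 67.5 CPM in ending 2, and ADAMTS19 at 52.7 and 52.6 CPM. MMP11, a furin-activated MMP, had nearly equal levels in surface epithelium-like cells (27.4 CPM, 22.0–33.7) and stroma-like cells (24.8 CPM, 22.4–27.5). TFPI2, an inhibitor of plasmin and of some MMPs, was at 58.7 CPM in this class and called higher there.

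No member was called higher in granulosa-like cells, where 2.6% of all genes were. In ending 1 alone ADAMTSL2 (2.25-fold) and MMP15 (2.04-fold) passed the size, and in ending 2 they were at 1.06-fold and 0.796-fold. Set directly against stroma-like cells, 9 members were at least 2-fold higher in stroma (2.61% of genes) and 0 were in granulosa (3.05% of genes). The 9 were the 8 genes of the stroma list and TIMP3. The median fold of the members in granulosa-like cells against all others was 0.932, beside 1.00 for all genes. The members that reached 20 CPM in this class were TIMP1, TIMP3, ADAMTS1, ADAMTS5, ADAMTSL1 and MMP15.

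The 3 granulosa-like clusters were not alike. In the cluster led by SOST and TOX3, MMP15 was at 35.6 CPM, ADAMTSL1 at 40.1 and ADAMTSL2 at 22.3 CPM. In the cluster led by LYPD1 and CBLN2 the same genes were at 10.5, 17.9 and 5.02 CPM, while TIMP1 was at 1208 CPM against 302 CPM. That cluster also had 27.1 CPM of ADAMTS2 and 33.2 CPM of MMP23B, where the SOST cluster had 7.66 and 5.84 CPM. Nearly all cells of the SOST cluster ended in 1 (1780 of 1812) and most of the LYPD1 cluster ended in 2 (1211 of 1316), so cluster and batch cannot be told apart. No granulosa marker was among the 10 leading genes of the LYPD1 cluster. Clusters with the same leading genes were left unnamed at the finer resolution and after integration, and were named pericyte-like without the upper limit on genes. The remaining cluster, led by PLXNC1 and INHBB, had a median of 49.0% mitochondrial UMIs.

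In macrophage-like cells 2 of the 46 members (4.35%) were called higher, a smaller share than the 5.78% of all genes. MMP9, the gelatinase of myeloid cells, was at 38.3 CPM (25.4–55.3) and MMP19 at 32.8 CPM (21.0–48.8). The 28 UMIs of MMP9 came from 6 of the 229 cells and the 24 UMIs of MMP19 from 10 cells. At a finer clustering resolution the cluster parted into 132 macrophage-like and 96 lymphocyte-like cells. All UMIs of both genes were then in the macrophage-like part, at 70.6 CPM (46.9–102) and 60.5 CPM (38.8–90.1), and the lymphocyte-like part had 0 UMIs of either, which allows up to 8.96 CPM (3 counts). TIMP1 was at 610.2 CPM in the macrophage-like part and 152 CPM in the lymphocyte-like part. Of 10 cathepsins and cystatins, the lysosomal proteases and their inhibitors, 5 were called higher in the undivided class (CTSS, CTSB, CTSH, CTSZ and CST3).

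No member was called higher in germ cell-like cells, where 9.0% of all genes were, and the median member fold was 0.818. Within the class 1 cluster stood apart. It had 81 cells, all with barcodes ending in 1, and was led by genes that include NANOG and DPPA4, markers of early germ cells. MMP15 was at 92.8 CPM in it (69.1–122), MMP2 at 85.6 CPM (62.9–114) and MMP17, a lipid-anchored MMP, at 21.8 CPM (11.3–38.2).

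In the germ cell-like cluster led by ZGLP1 and REC8 the same genes were at 12.5, 25.6 and 5.44 CPM, and in the meiotic cluster led by SYCP1 and SYCP3 at 10.8, 13.6 and 4.28 CPM. A MMP2 UMI was found in 39.5% of the NANOG cells and a MMP15 UMI in 40.7%. TIMP1 was at 16.4 CPM (7.49–31.1) in them, below its 28.1 CPM in erythroid-like cells of the same ending. This cluster had a median of 7031 UMIs per cell, the highest of all 18.

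**Figure D3:**
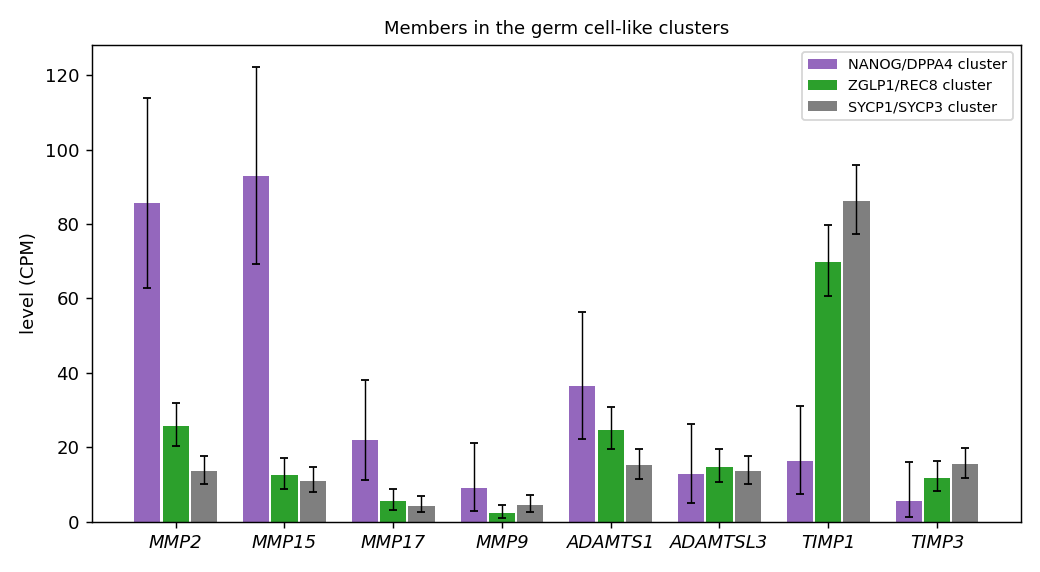
Levels in CPM of 8 members in the 3 germ cell-like clusters (bars, with exact 95% Poisson intervals), named by their leading genes. In the NANOG/DPPA4 cluster MMP2 (85.6 CPM) and MMP15 (92.8 CPM) stand above the other clusters, and TIMP1 (16.4 CPM) below them.

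The stroma-like cells fell into 3 clusters. One, of 2150 cells, was led by GBP1, SPON2 and C7 and had barcodes ending in 2 in all but 3 cells. Another, of 1739 cells, was led by POSTN, RSPO3 and LUM and had 1712 barcodes ending in 1. The last, of 112 cells, was led by cell cycle genes. Between the highest and the lowest of the 3, 6 members differed at least 2-fold with 10 CPM added (5.4% of all genes did), namely ADAMTS5, ADAMTS16, ADAMTSL1, ADAMTSL3, ADAMTSL4 and MMP2.

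The POSTN cluster was higher in ADAMTS5, an aggrecan- and versican-cleaving protease, with 67.2 CPM against 19.4 CPM in the GBP1 cluster. The log2 ratio of GBP1 over POSTN cluster was −1.79 (−2.06 to −1.53). It was also higher in ADAMTS16 (22.8 against 4.54 CPM), ADAMTSL3 (25.2 against 6.13 CPM), ADAMTSL1 (22.5 against 4.20 CPM) and ADAMTS19 (30.1 against 14.2 CPM). The GBP1 cluster was higher in TIMP1 (1835 against 1223 CPM), MMP2 (531.5 against 335 CPM), ADAMTS9 (62.2 against 34.5 CPM) and MMP11 (30.3 against 17.2 CPM). For MMP14 and ADAMTSL4 the levels were close, at 73.1 and 66.7 CPM and at 27.5 and 34.7 CPM. MMP2 (227 CPM) and ADAMTSL4 (10.3 CPM, on 6 UMIs) were lowest in the cycling cluster. Since the 2 large clusters came from different barcode endings, subtype and batch cannot be told apart in this comparison.

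**Figure D4:**
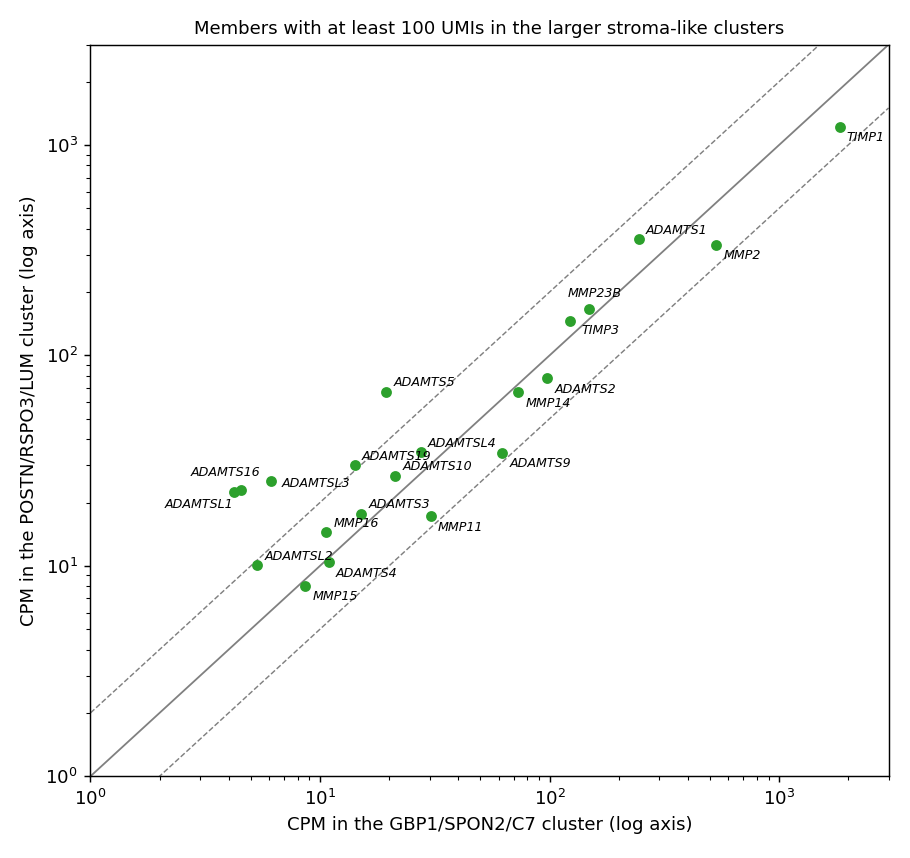
Levels of the members with at least 100 UMIs in the 2 larger stroma-like clusters, GBP1/SPON2/C7 (x axis) against POSTN/RSPO3/LUM (y axis), in CPM on log axes, with the line of equality and dashed lines at 2-fold. ADAMTS5, ADAMTS16, ADAMTS19, ADAMTSL1 and ADAMTSL3 lie above the upper dashed line, while MMP2, TIMP1, ADAMTS9 and MMP11 lie below equality.

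After the 2 sets of barcodes were integrated, a stroma-like cluster led by MGP, RSPO3 and LUM had cells of both endings (372 and 169) and could be set against the other non-cycling stroma-like cluster, led by IRF1, GBP1 and C7, within each ending (813 and 1161 cells). In both endings 6 members were at least 1.5-fold higher in the LUM cluster with 10 CPM added (1.51% of all genes were), and 0 were that much lower (0.464% of genes). The 6 were ADAMTSL4, MMP23B, MMP14, ADAMTS16, MMP19 and ADAMTSL1.

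ADAMTSL4, which binds fibrillin microfibrils, was at 66.0 CPM against 28.5 CPM in ending 1 and at 86.2 against 21.6 CPM in ending 2. MMP23B was at 258.5 against 141 CPM and at 335 against 125 CPM. MMP14 was at 93.5 against 53.9 CPM and at 115 against 61.9 CPM. These 3 genes were higher in the LUM cluster than in the IRF1 cluster in both batches, with log2 intervals above 0 in each. In a further integrated cluster closest to stroma but left unnamed, MMP14 was at 73.3 and 86.2 CPM in the 2 endings, above the IRF1 cluster. MMP23B was at 139 and 147 CPM there, and ADAMTSL4 at 20.4 and 22.1 CPM. ADAMTSL1 had 69.7 against 9.95 CPM in ending 1, and 12.99 against 3.66 CPM in ending 2 on 11 and 21 UMIs. MMP19 rested on 16 and 12 UMIs in the LUM cluster, and ADAMTS16 on 43 and 9. ADAMTSL3 (log2 ratios of 0.78 and 2.04) and ADAMTS19 (0.62 and 1.47) were also higher in both endings but missed the size in ending 1.

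MMP2 did not part the integrated clusters, with 355 against 326 CPM in ending 1 and 531.5 against 525 CPM in ending 2, log2 differences of 0.12 (−0.05 to 0.30) and 0.02 (−0.13 to 0.16). It differed between the endings instead. TIMP1 and TIMP3 took opposite signs, lower in the LUM cluster in ending 1 (log2 differences of −0.20 and −0.77) and higher in ending 2 (0.51 and 0.40). ADAMTS1 was higher in the LUM cluster in both endings, by log2 differences of 0.91 and 0.55, which is under the 1.5-fold size in ending 2. The immediate early genes summed to 15100 CPM in the LUM cluster and 16950 CPM in the other in ending 1, and to 17460 and 17380 CPM in ending 2. The integrated cluster closest to stroma that was left unnamed, because pericyte markers led it, had lower sums of these genes (4214 and 3540 CPM) and lower ADAMTS1 (166 and 142 CPM).

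**Figure D5:**
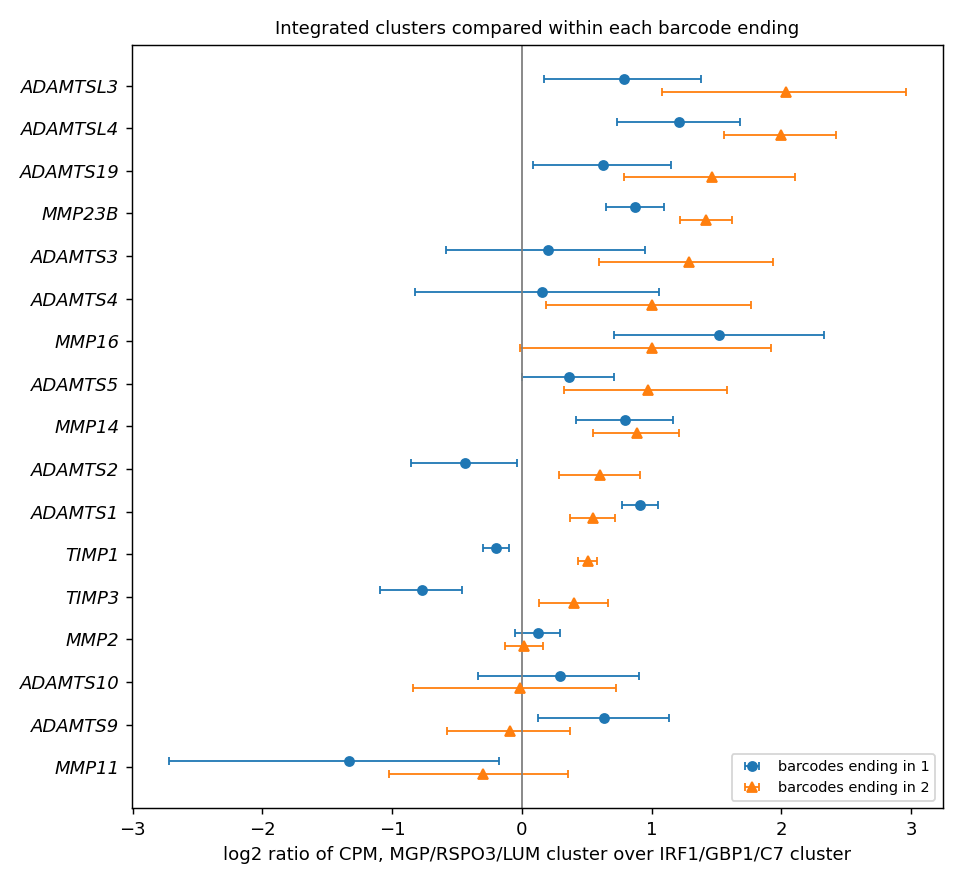
Log2 ratio of CPM in the MGP/RSPO3/LUM cluster over the IRF1/GBP1/C7 cluster of the integrated stroma-like cells, for each gene with at least 40 UMIs in each ending and at least 1 in the LUM cluster, with 95% intervals from the exact split of UMIs. Circles are barcodes ending in 1 and triangles those ending in 2. ADAMTSL4, MMP23B and MMP14 lie right of 0 in both, MMP2 lies near 0 (0.12 and 0.02), and TIMP1, TIMP3 and ADAMTS2 change sides.

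The other described genes had broader profiles. ADAMTS10, which acts on fibrillin microfibrils, was at 23.1 CPM (20.7–25.7) in stroma-like and 21.2 CPM (14.0–30.8) in endothelial-like cells, which overlap. ADAMTSL3 was at 25.6 CPM (12.8–45.9) in pericyte-like cells on 11 UMIs, with 14.0 CPM in germ cell-like and 13.7 CPM in stroma-like cells. ADAMTS5 was at 37.4 CPM (34.4–40.7) in stroma-like, 23.9 in granulosa-like and 23.3 CPM in pericyte-like cells. In ending 1 it was at 67.1 CPM in stroma-like and 20.2 CPM in granulosa-like cells, and in ending 2 the order was reversed, at 18.8 and 27.5 CPM. Some members are neighbours on a chromosome with different highest classes, as ADAMTS8 (pericyte-like) and ADAMTS15 (stroma-like cells, 3.16 CPM).

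The 22 genes under the limit had from 0.131 to 16.5 CPM in their highest class. The collagenases and stromelysins MMP1, MMP10, MMP13 and MMP27 had from 3 to 18 UMIs each in all retained cells. MMP20, MMP21, ADAMTS20, TIMP4, ADAMTSL5, ADAMTS6 and ADAMTS18 had from 7 to 63 UMIs. The others were MMP17, MMP25, ADAMTS7, ADAMTS12, ADAMTS13, ADAMTS14, ADAMTS15, ADAMTS16, ADAMTS17, ADAMTSL2 and TIMP2, with 46 to 375 UMIs. Of these, ADAMTS17 had its highest level in surface epithelium-like cells (13.4 CPM, against 4.06 in germ cell-like cells). ADAMTS16 was at 11.9 CPM in stroma-like and 2.53 CPM in granulosa-like cells. This gap lay in ending 1 (23.4 against 0.836 CPM), while the levels in ending 2 were 4.71 and 4.17 CPM. ADAMTS13, the protease that cuts von Willebrand factor, was at 6.64 CPM in granulosa-like and 6.02 CPM in germ cell-like cells, and at 3.92 CPM in the endothelial-like cells that held VWF at 344 CPM. MMP3, MMP7, MMP8, MMP12 and MMP26 have RefSeq symbols in this species and no row of that name in the table, so no value is given for them.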

How the data were processed

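Single-cell RNA libraries (3′ tags) of the ovaries of 1 fetus at E84 and 1 at E116 were analysed. The deposited table holds raw counts of UMIs. Per the submitters' notes and the study's methods, the authors counted reads with Cell Ranger 3.0.2 against Macaca_fascicularis_5.0 and imported the counts into Seurat. Genes in fewer than 3 cells were already absent, and no removal of doublets or free RNA is stated. Scrublet (scanpy 1.11.5) gave 0 called doublets, a value also recorded where it makes no call, so absence of doublets is not shown. None was removed in the main comparisons. An alternative left out the 8% of cells with the highest doublet scores in each ending.

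Cells with 200 to 3000 genes were clustered with Seurat 5.3.0 (R 4.3.3) on 2000 variable genes without the 46 genes and 7 companion lists, except the immediate early genes, with 18 components, 20 neighbours and resolution 0.6. Names needed 3 markers at 1.5-fold in 5% of cells. Sums, intervals and thinning used Python 3.11.15, numpy 2.4.6, scipy 1.17.1 and pandas 2.3.3. The interval was tested on simulated data. A gene was described at 20 CPM and 10 UMIs in a class. The genes, companion lists and markers were chosen with earlier results of these data known. The integrated, finer and over-limit clusters were compared after the data were seen. Alternatives changed limits, clustering, pseudocount, filter, level and batch. A result of the plasminogen list is not reported here.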

Additional observations from a re-analysis of the deposited data

Results flagged for a closer look

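The 4675 cells over 3000 genes were left out of all comparisons above. Clusters made without that limit were used to look at them, and 2 genes that reached 20 CPM in no class of retained cells did so there. ADAMTS16 was at 27.5 CPM (21.1–35.3), on 62 UMIs, in the 133 such cells of a stroma-like cluster led by POSTN and LUM, where a count of 0 would allow 1.33 CPM. ADAMTSL2, an ADAMTS-like protein that binds fibrillin microfibrils, was at 21.8 CPM (18.4–25.7), on 142 UMIs, in the 426 such cells of a granulosa-like cluster led by SOST. Nearly all of these cells had barcodes ending in 1 (132 and 416). Doublets were not removed from them, and the part of doublets in these values was not tested.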

How the results depend on the processing

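Counts of called members depended most on the pseudocount. With 1 CPM added in place of 10, there were 18 in stroma-like, 1 in granulosa-like, 10 in pericyte-like, 9 in endothelial-like, 4 in macrophage-like and 2 in germ cell-like cells, 20 between stromal clusters and 20 between stroma-like and granulosa-like cells, while the share over all genes also grew (to 5.72% in stroma-like cells). Between stromal clusters the count was 12 with at most 10% mitochondrial UMIs, 13 at resolution 1.0 and 10 with 30 principal components. Granulosa-like cells had 1 with at most 10% mitochondrial UMIs and 2 in ending 1 alone. Without the upper limit there were 8 in endothelial-like cells (the cause was not tested) and 2 in pericyte-like cells, where a cluster of 764 cells led by CBLN2 and LYPD1 then also took the pericyte name. The other 107 counts stayed within 1.5 times the reported ones, and none reversed. Of 329 values of the 24 described genes in their highest class, 325 kept a log2 fold above 0. That class was picked as the highest in these same cells, so this count was largely set in advance. A fold of 2 was kept in every alternative by 15 of the 18 genes that had it. ADAMTS4, ADAMTS8 and ADAMTS9, all in pericyte-like cells, did not keep it. Pericyte-like and macrophage-like cells of ending 1 alone, under 50 each, gave no value. Each ending alone was the nearest available to leaving out a library, but no label ties an ending to a library. No paired analysis was possible because no result comes from a test, and values within each ending are given beside the results. Members with few UMIs have wide intervals.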

Other observations

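Among the cells over 3000 genes, 132 belonged to a germ cell-like cluster whose leading genes include PADI6, ZAR1 and ASTL, genes of growing oocytes. ADAMTS18, which had 44 UMIs in all retained cells, was at 17.2 CPM there (14.4–20.4), with a UMI in 47.0% of the cells, and at 3.56 CPM or less in the over-limit cells of every other cluster. ADAMTS17 was at 16.4 CPM (13.7–19.6) on 125 UMIs in the same cells. MMP15 was at 26.8 CPM (23.3–30.7) and ADAMTSL3 at 16.4 CPM. All 132 cells had barcodes ending in 2, and the median depth of their cluster was 56835 UMIs, so shares of cells are not comparable with those of shallower clusters.

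The NANOG cluster has a counterpart above the limit, which stayed unnamed. In its 285 cells MMP2 was at 64.1 CPM (57.8–71.0) and MMP15 at 63.1 CPM (56.8–69.9), while TIMP1 was at 78.2 CPM.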
